A study of Mus musculus with 6 samples.

Results

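Among the imprinted growth and quiescence genes, none passed the test between hematopoietic stem cells (HSC) of wild-type mice and HSC of mice without P-selectin, while 2 of them, Grb10 and Ndn, were lower on the third array of each genotype. The genes described are Ndn, Cdkn1c, Igf2, H19, Dlk1, Meg3, Peg3, Grb10, Plagl1 and Mest, 10 genes chosen by name as members of the imprinted network linked to stem cell quiescence. All probe sets that carried 1 of these names, and no other gene's, were taken. They were 9 of the 28815 probe sets on the array, 1 each for 9 genes. No probe set carried the name H19, and that gene was not analysed here. Of the 9 probe sets, 6 passed the filter on low levels and were tested (Ndn, Cdkn1c, Igf2, Dlk1, Meg3 and Grb10). Peg3, Plagl1 and Mest lay below it.

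The study set wild-type (WT) HSC against Selp-/- HSC, both of strain C57BL/6 per the labels, to ask how P-selectin, the adhesion receptor encoded by Selp, regulates HSC function. There were 6 Affymetrix whole-transcript arrays, 3 per genotype, which the labels number 1 to 3 within each genotype. The sources used here do not give the age of the mice, the sort of the HSC, how many mice gave each RNA or what the array number marks. No label ties the arrays to separate animals, and p-values thus reflect only the spread among these samples, which may be technical.

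An imprinted gene is expressed mainly or only from the copy inherited from 1 parent, and methylation of CpG dinucleotides at control regions, set in the germ line, marks which copy is used. Many imprinted genes act on growth: Igf2 is a fetal growth factor, Grb10 an adaptor that restrains the insulin and IGF1 receptors, and Cdkn1c (p57) an inhibitor of cyclin-dependent kinases. In the bone marrow, Cdkn1c, Ndn, the H19 and Igf2 locus and the Dlk1 and Meg3 locus are known for roles in keeping long-term HSC out of cycle.

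The arrays numbered 3 stood apart from the other 4 in both genotypes, and every difference given for number 3 rests on them. Median intensities ran from 563 to 751 over the 6 arrays. The HSC regulator Hlf had log2 levels of 12.13 to 12.53 in the arrays numbered 1 and 2 and of 8.88 and 8.81 in WT 3 and Selp-/- 3. The basophil protease Mcpt8 ran the other way, from 9.38 to 9.65 in the former to 14.17 and 13.95 in the latter. Of 16 HSC markers listed, 13 had a named probe set, and all 13 lay above the filter. Xist, which is expressed from the inactive X chromosome, had an intensity of 398 in Selp-/- 3 against 5010 to 10757 in the other 5 arrays. No check of the genotype labels by Selp itself was made here.

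Levels are log2 intensities after background correction and quantile normalization, and the filter lay at 8.79, the 40th percentile of the mean level. A level can be set against the same gene on another array, not against another gene. The fits ran over all 17289 probe sets that passed, with limma and Benjamini-Hochberg adjustment.

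**Figure D1:**
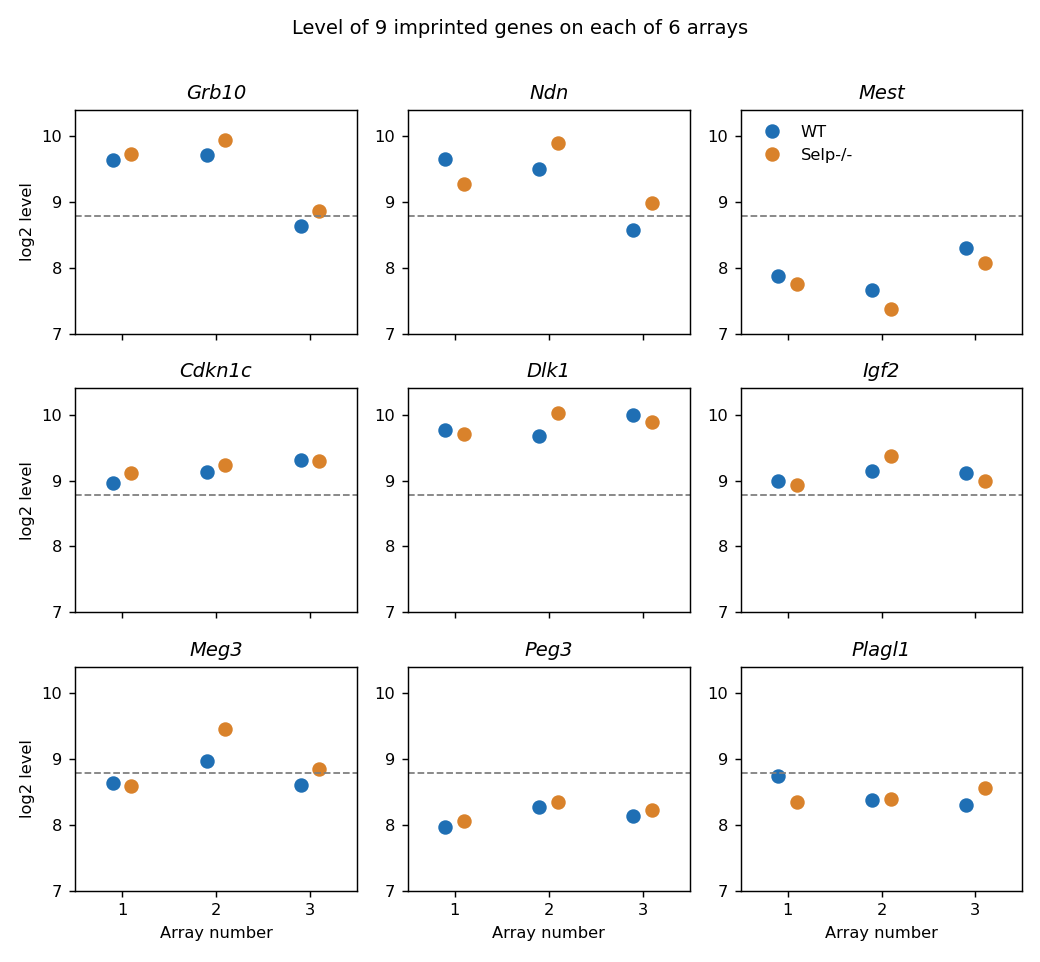
Each panel plots the log2 level of 1 imprinted gene (vertical axis) on each of the 6 arrays, by array number (horizontal axis), with WT in blue, Selp-/- in orange and the filter level of 8.79 as a dashed line. Grb10 and Ndn sit lowest on both arrays numbered 3, Mest sits highest there, and in no panel do the 3 points of a genotype clear the other 3.

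Between genotypes, 0 of the 6 tested genes passed an adjusted p of 0.05, and 0 reached an unadjusted p of 0.05. Over all 17289 probe sets tested the share past the adjusted threshold was 0%, and 0.706% had an unadjusted p under 0.05. Genotypes without overlap were found for 0 of the 9 genes with a probe set, against 4.21% of all probe sets tested. All 6 differences, Selp-/- minus WT, were above 0, with a median of 0.11 on the log2 scale, against a median of 0.0054 over all probe sets, of which 8962 were above 0 and 8327 below. Without Selp-/- 2 the differences were -0.034 for Grb10, -0.012 for Dlk1, -0.11 for Ndn and -0.12 for Igf2. Cdkn1c stayed above 0, at 0.075, and Meg3 was not tested. Without WT 3, Grb10 and Ndn gave -0.16 and -0.19, and without WT 1, Igf2 and Cdkn1c gave -0.029 and -0.00076. In both of these fits the other tested members stayed above 0. The shared sign thus depended on single arrays. Below the filter, Mest and Plagl1 gave -0.21 and -0.043 and Peg3 0.086 in the fit without a filter. Igf2 turned to -0.018 with median centring and to -0.021 without normalization when set against the median shift of all probe sets. All 6 intervals of the genotype difference held 0.

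The cell cycle brakes come first. Ndn, whose protein necdin binds p53 and E2F1 and restrains growth, had levels of 9.66, 9.50 and 8.58 in WT 1, WT 2 and WT 3 and of 9.28, 9.89 and 8.99 in Selp-/- 1, Selp-/- 2 and Selp-/- 3. The arrays numbered 3 were the lowest of each genotype, and the genotypes overlapped. The mean of Ndn was 9.25 ± 0.58 over the WT arrays and 9.39 ± 0.46 over the Selp-/- arrays (SD, n = 3). The genotype difference of Ndn was 0.14 (SE 0.34, 95% interval -0.66 to 0.95, limma adjusted p = 1), and within numbers 1, 2 and 3 it was -0.37, 0.39 and 0.42.

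Cdkn1c read 8.96, 9.13 and 9.31 on the WT arrays and 9.12, 9.24 and 9.29 on the Selp-/- arrays, in the order of the array numbers. In each genotype the level was lowest on array 1 and highest on array 3, and the genotypes overlapped. The genotype difference of Cdkn1c was 0.086 (SE 0.12, 95% interval -0.21 to 0.38, limma adjusted p = 1), so this interval held no rise of more than 0.38 and no fall of more than 0.21. Cdkn1b (p27), the related inhibitor, read 10.58, 10.50 and 10.48 on the WT arrays and 10.46, 10.55 and 10.20 on the Selp-/- arrays, with a difference of -0.12 (SE 0.14).

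Of the growth factor arm, Igf2 read 8.99, 9.14 and 9.11 on the WT arrays and 8.93, 9.37 and 8.996 on the Selp-/- arrays. Its 6 levels stayed within a span of 0.44, with both arrays numbered 2 the highest. The genotype difference of Igf2 was 0.016 (SE 0.14, 95% interval -0.32 to 0.35, limma adjusted p = 1).

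Grb10 read 9.63, 9.71 and 8.65 on the WT arrays and 9.73, 9.94 and 8.87 on the Selp-/- arrays. Within each number Selp-/- was the higher, by 0.091, 0.23 and 0.22. Against the spread over the 3 numbers this was small: the mean of Grb10 was 9.33 ± 0.59 over the WT arrays and 9.51 ± 0.57 over the Selp-/- arrays (SD, n = 3), a difference of 0.18 (SE 0.37, 95% interval -0.70 to 1.07, limma adjusted p = 1). With the array number as a block the SE fell to 0.095 and the adjusted p was 0.983, over the threshold still.

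Dlk1, a transmembrane protein of the Notch ligand family expressed from the paternal copy, read 9.76, 9.68 and 9.99 on the WT arrays and 9.71, 10.03 and 9.88 on the Selp-/- arrays. Its order over the arrays followed neither genotype nor number, and the difference was 0.066 (SE 0.14). Meg3, the long non-coding RNA expressed from the maternal copy of the same locus, read 8.63, 8.97 and 8.60 on the WT arrays and 8.59, 9.45 and 8.84 on the Selp-/- arrays. The array numbered 2 was the highest of each genotype, and Selp-/- 2 stood above all others. Meg3 gave a genotype difference of 0.23 (SE 0.23, 95% interval -0.32 to 0.78, limma adjusted p = 1), and its mean level lay only 0.058 above the filter.

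Below the filter lay the zinc finger transcription factors Peg3 and Plagl1 and the alpha/beta hydrolase Mest, by 0.62, 0.34 and 0.95. Peg3 read 7.97, 8.27 and 8.13 on the WT arrays and 8.06, 8.35 and 8.23 on the Selp-/- arrays, and Plagl1 8.75, 8.37 and 8.31 on the WT arrays and 8.35, 8.39 and 8.56 on the Selp-/- arrays. Peg3 was lowest on both arrays numbered 1 and highest on both numbered 2, while Plagl1 had neither genotypes nor numbers apart. Within numbers 1, 2 and 3 Peg3 was higher in Selp-/-, by 0.087, 0.072 and 0.10. The SD over the arrays of a genotype was 0.15 in both, which includes the differences between numbers. Being below the filter, Peg3 was not in the fit with the number as a block, so these within-number differences were not tested. In the fit without a filter the genotype differences were 0.086 (SE 0.13) for Peg3, -0.043 (SE 0.15) for Plagl1 and -0.21 (SE 0.22) for Mest, each with a limma adjusted p of 1. Mest, at 7.87, 7.67 and 8.30 on the WT arrays and 7.76, 7.37 and 8.08 on the Selp-/- arrays, was lower in Selp-/- within each number, by 0.11, 0.30 and 0.22.

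One array held the highest level of most members. Selp-/- 2 was the highest array for 6 of the 9 genes (Ndn, Igf2, Dlk1, Meg3, Peg3 and Grb10), against 16.8% of all probe sets tested. WT 3 was the highest for Cdkn1c and Mest, and WT 1 for Plagl1. The count for Selp-/- 2 stayed at 6 with median centring and without background correction, and was 2 of 9 without normalization, where that array was the highest for 2.74% of all probe sets.

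By array number, the share of members called was near that of all probe sets. An F test of the number called 12.8% of all probe sets and 1 of the 6 members (16.7%), Grb10 (limma adjusted p = 0.00393). That count is no result about the members as a set. Ndn gave 0.0550, Meg3 0.0783, Igf2 0.315, Cdkn1c 0.325 and Dlk1 0.605 in the same test. Against the mean of numbers 1 and 2, the arrays numbered 3 were called higher for 9.13% of all probe sets and 0 of the 6 members, and lower for 11.7% and 2 of the 6, Grb10 and Ndn. Both passed the filter through the arrays numbered 1 and 2, with mean levels of 9.75 and 9.58 there. On the arrays numbered 3 their means were 8.756 and 8.785, just under the filter level of 8.7885. Their calls are thus not independent of the filter. In the fit without a filter both passed too (limma adjusted p = 0.00428 and 0.0456). Without normalization 83.56% of the number 3 calls were on the higher side, against 43.8% with it. That processing moved the median of all probe sets by 0.20 in the number 3 contrast, and relative to it Grb10 stood at -0.81 and Ndn at -0.63.

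Grb10 had the largest number 3 difference of the 6 tested members. Its deposited intensities were 881.5, 788 and 587 on the WT arrays and 1070.5, 1024.5 and 627.5 on the Selp-/- arrays, so the arrays numbered 3 were the lowest before any normalization. Normalized, the number 3 arrays lay 1.03 below the mean of the other 2 in WT and 0.97 below in Selp-/- HSC. The fitted difference was -0.996 (SE 0.10, 95% interval -1.23 to -0.76, limma adjusted p = 0.00133), or 1.99 times less after an offset that makes changes of low signals look smaller. It passed the threshold without each of the 6 arrays in turn, at -1.03 to -0.96.

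Ndn followed with a smaller and less even fall. Its deposited intensities were 893, 705 and 564 on the WT arrays and 787, 994 and 673 on the Selp-/- arrays. The gap of the number 3 array was -1.004 in WT and -0.59 in Selp-/- HSC, and the fitted difference was -0.80 (SE 0.18, 95% interval -1.22 to -0.38, limma adjusted p = 0.0225), or 1.74 times less. That call depended on single arrays: it was lost without WT 3 (-0.60, adjusted p = 0.168), without Selp-/- 2 (adjusted p = 0.0655) and without WT 2 (adjusted p = 0.0508).

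Mest ran opposite to both. Its deposited intensities were 336, 283 and 489.5 on the WT arrays and 345, 271.5 and 413.5 on the Selp-/- arrays, highest in number 3 of each genotype. The median intensity of all probe sets was also the highest there, at 751 in WT 3 and 713 in Selp-/- 3. In the normalized fit without a filter Mest was higher on the number 3 arrays by 0.52 (SE 0.11, 95% interval 0.26 to 0.78, limma adjusted p = 0.0316). The gaps were 0.53 in WT and 0.51 in Selp-/- HSC. Its F test in that fit gave an adjusted p of 0.0609. Peg3 and Plagl1 gave number 3 differences of 0.020 and -0.026 there, with adjusted p of 0.936 and 0.946.

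The remaining 4 tested members did not pass the number 3 contrast. Cdkn1c gave 0.19 (SE 0.10, 95% interval -0.056 to 0.43, limma adjusted p = 0.241), although both its number 3 levels lay above the other 4. Dlk1 gave 0.14, Meg3 -0.19 and Igf2 -0.055, with limma adjusted p of 0.488, 0.368 and 0.780. Both arrays numbered 3 lay wholly above or below the other 4 for 3 of the 6 tested members (Ndn, Grb10 and Cdkn1c), against 45.2% of all probe sets tested. A count at that share is no result about these genes.

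**Figure D2:**
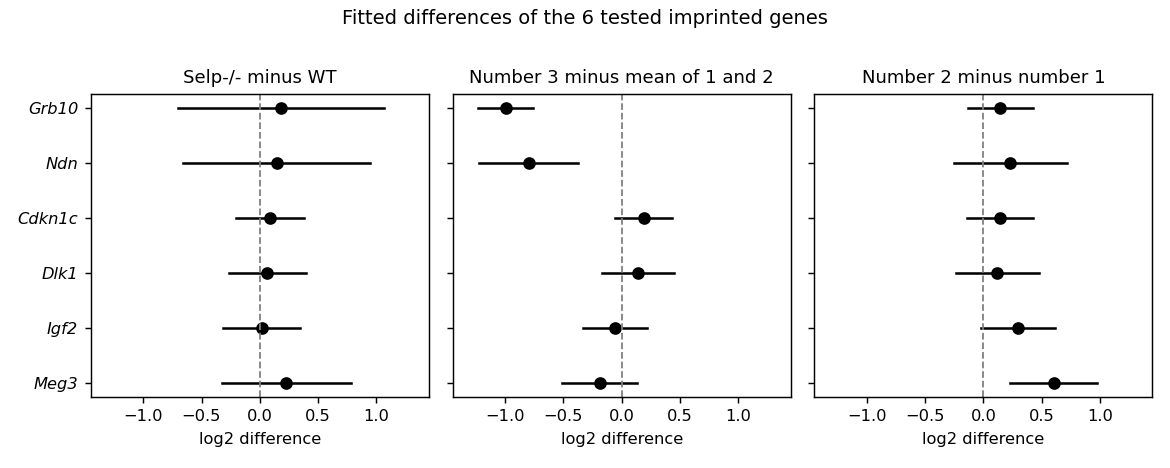
Points are the fitted log2 differences of the 6 tested imprinted genes and lines their 95% intervals, for Selp-/- minus WT, array number 3 minus the mean of 1 and 2, and number 2 minus number 1. The intervals of Grb10 (-1.23 to -0.76) and Ndn (-1.22 to -0.38) lie below 0 in the middle panel, and all 6 genotype intervals hold 0.

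Between numbers 2 and 1, 0 of the 6 members were called, against 0.0521% of all probe sets. Meg3 gave 0.60 (SE 0.16, limma adjusted p = 0.479). It passed the filter through the arrays numbered 2, with a mean level of 9.21 there against 8.61 in number 1 and 8.72 in number 3, both below the filter, so its difference is not independent of the filter. Without Selp-/- 2 it was not tested. Igf2 gave 0.29 (SE 0.13, adjusted p = 0.658) in the same fit, and the other 4 lay between 0.12 and 0.23. Peg3 gave 0.30 in the fit without a filter (adjusted p = 0.725).

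Genes of the HSC themselves and of other blood cells moved with the array number beside Grb10, Ndn and Mest. Over all probe sets tested, 11.7% were called lower and 9.13% higher in number 3, and the counts of each list stand against these shares. Of the 13 HSC markers, 10 were called lower and 1 higher in number 3, and their summed intensities were 36460 to 45210 in numbers 1 and 2 and 17000 and 19850 in number 3. All 7 tested mast cell and basophil markers were called higher, with sums of 4876 to 6059 against 47600 and 62470. Each sum covers all markers of its list with a named probe set, also those below the filter. These were 11 for mast cells and basophils, 9 for monocytes and 7 for erythroid cells. They were 8 for endothelial cells, 9 for T and NK cells and 8 for B cells. Of the 12 neutrophil markers 9 were called higher, with sums of 24860 to 56770 against 82120 and 84130. Of 8 monocyte markers tested 5 were called higher, with sums of 10050 to 11080 against 18240 and 32010. Of 6 erythroid markers tested 3 were called lower, with sums of 13120 to 28790 against 5840 and 5366, and of 7 endothelial markers tested 4 lower and 1 higher, with sums of 10200 to 12850 against 8168 and 6358. Numbers 1 and 2 differed too. Neutrophil sums were 48610 and 56770 in number 1 and 26810 and 24860 in number 2, with 2 markers called lower in number 2. Erythroid sums were 28790 and 28740 against 13120 and 14090, with 1 marker called lower. Between these numbers 0.0521% of all probe sets were called. The 6 megakaryocyte markers had 2 called higher (sums of 5878 to 9911 against 21990 and 12580), the 4 tested of T and NK cells 2 higher (7599 to 8716 against 13180 and 13280) and the 7 tested of B cells 2 lower (5952 to 8880 against 6061 and 4736). Of 8 stromal and mesenchymal markers tested 2 were called higher, with sums over the 11 on the array of 5951 to 6951 against 7714 and 8195. The counts of 2 in these last lists rest on few markers and are no result about a cell type. No probe set on these arrays was listed at 0. The part of these cell types in the levels of Grb10, Ndn and Mest was not tested. In RNA of bulk samples, fewer cells of a type and less RNA per cell cannot be told apart.

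**Figure D3:**
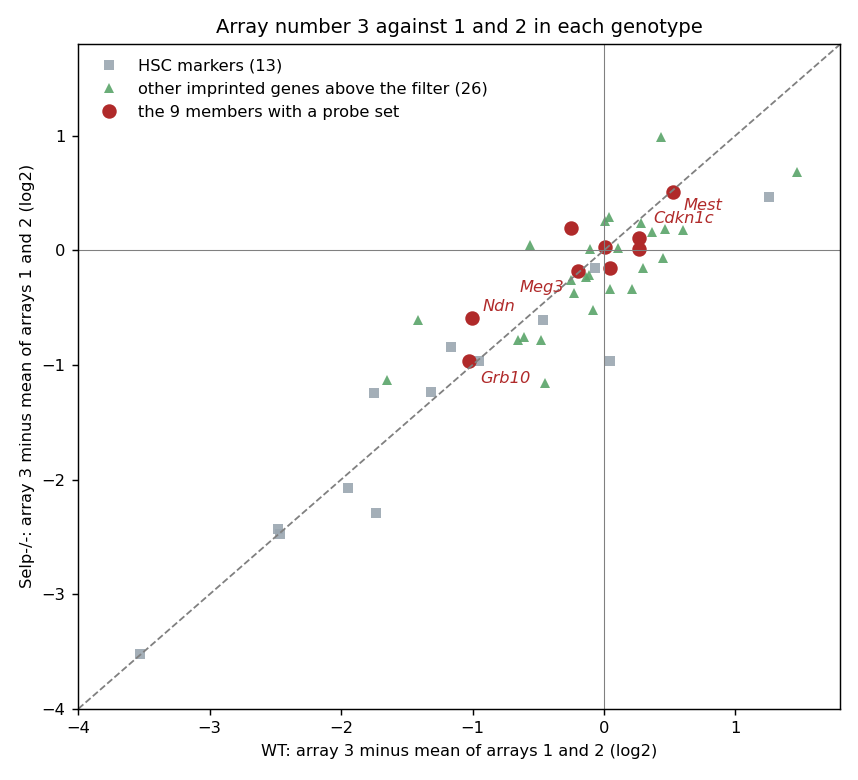
Each point is a gene, placed by the log2 level of array 3 minus the mean of arrays 1 and 2 in WT (horizontal axis) and in Selp-/- HSC (vertical axis): red circles are the 9 imprinted genes with a probe set, green triangles 26 other imprinted genes above the filter and grey squares 13 HSC markers, and the dashed line marks equal gaps. Grb10 (-1.03 and -0.97), Ndn (-1.004 and -0.59) and Mest (0.53 and 0.51) moved the same way in both genotypes, and the lowest grey square is Hlf (-3.53 in the fit over both).

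The upstream sequences of the genes that moved with the array number are given with their CpG content, which differs between them. Methylation was not measured, and whether these windows hold an imprinting mark was not tested. They come from RefSeq on GRCm38.p6 and show the 250 bases before an annotated start, 5′ to 3′ on the gene's strand, with CpG dinucleotides in capitals. The table held windows of 8 of the 10 genes, 15 in all, and none of Cdkn1c or H19. Ndn has 1 start, at chr7:62348027-62348276 (plus strand), with 5 CpG. Grb10 has 2 windows on the minus strand, at chr11:12037421-12037670 with 40 CpG and at chr11:12027972-12028221 with 8. Mest has 3, and the middle one, at chr6:30737800-30738049 (plus strand), has 14.
Ndn: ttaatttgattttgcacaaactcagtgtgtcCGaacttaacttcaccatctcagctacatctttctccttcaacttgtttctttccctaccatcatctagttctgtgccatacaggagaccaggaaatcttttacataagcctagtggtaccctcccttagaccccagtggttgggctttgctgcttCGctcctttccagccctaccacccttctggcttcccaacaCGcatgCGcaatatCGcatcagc
Grb10, window 1: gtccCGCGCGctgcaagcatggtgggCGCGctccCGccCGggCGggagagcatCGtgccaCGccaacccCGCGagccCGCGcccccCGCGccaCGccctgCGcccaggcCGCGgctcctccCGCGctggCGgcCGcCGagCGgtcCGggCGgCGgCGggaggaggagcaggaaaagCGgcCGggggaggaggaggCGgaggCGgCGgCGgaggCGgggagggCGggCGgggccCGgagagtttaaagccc
Grb10, window 2: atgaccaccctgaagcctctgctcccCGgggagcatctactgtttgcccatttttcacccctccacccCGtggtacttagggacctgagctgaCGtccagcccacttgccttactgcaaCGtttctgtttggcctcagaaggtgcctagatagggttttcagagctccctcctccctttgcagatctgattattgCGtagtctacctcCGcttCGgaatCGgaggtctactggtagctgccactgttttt
Mest, window 2: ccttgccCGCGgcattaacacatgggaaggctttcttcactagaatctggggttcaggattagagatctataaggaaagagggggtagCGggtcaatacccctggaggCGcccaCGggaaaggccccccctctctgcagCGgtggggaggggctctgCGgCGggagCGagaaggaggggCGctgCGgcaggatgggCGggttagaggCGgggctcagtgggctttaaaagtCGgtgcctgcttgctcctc

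The median window of the 32851 in the table held 6 CpG. Only 1.3% held as many as the 40 of the upstream Grb10 window, which is 81.2% G and C, while 43.0% held at least the 8 of its downstream window. At least 5 CpG, as in Ndn, stood in 55.6% of windows, and at least 14, as in Mest, in 29.4%. The levels come from 1 probe set per gene and do not tell which start was used.

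Short motifs were searched on both strands of the 15 windows: TGCCGC, the hexamer that the imprint-protecting protein ZFP57 binds when methylated, GGGCGG, the core of Sp1 sites, and TATAAA. The first pair can share bases where they adjoin. TGCCGC stood in 4 of the 15 windows, against 8.7% of all windows. They were both overlapping downstream windows of Mest, with 2 matches each, and 1 window each of Plagl1 and Meg3, so neither Grb10 nor Ndn held it. GGGCGG stood in 7 of 15 windows, against 32.7%, with 5 matches in the upstream Grb10 window. TATAAA stood in 1 of 15, that of Meg3, against 12.4%. A match describes letters, not a bound site.

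Several of the loci also hold microRNA genes with probe sets of their own, Mir127 between Dlk1 and Mirg, Mir483 within Igf2 and Mir335 within Mest. A probe set on a hairpin gene does not measure the mature microRNA. The mature sequences from RefSeq (GRCm38.p6) are shown with the seed, bases 2 to 8, in capitals, since these are the products of the member loci. They lie at chr12:109592854-109592875 and chr12:109592888-109592909 (plus strand) for miR-127, at chr7:142654968-142654989 and chr7:142654932-142654952 (minus strand) for miR-483 and at chr6:30741314-30741336 and chr6:30741354-30741375 (plus strand) for miR-335, the 5p arm first.
miR-127-5p: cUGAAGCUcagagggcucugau
miR-127-3p: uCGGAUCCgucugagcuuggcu
miR-483-5p: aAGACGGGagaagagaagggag
miR-483-3p: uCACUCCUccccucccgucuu
miR-335-5p: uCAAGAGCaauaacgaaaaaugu
miR-335-3p: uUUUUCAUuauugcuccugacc
No pair of these 6 arms shares a seed.

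The Dlk1 and Meg3 locus, read from Dlk1 to Mirg, held 87 RefSeq genes besides Dlk1 and Meg3, of which 60 are microRNAs. Probe sets were found for 44 of them, 40 on microRNA genes, and 13 passed the filter, 12 of these on microRNA genes. Neither genotype nor the number F test called any of the 13. The 12 microRNA probe sets gave genotype differences of -0.30 to 0.090 and number 3 differences of -0.21 to 0.15. The value of -0.30 was that of Mir127, at 9.16, 9.31 and 8.82 on the WT arrays and 8.91, 8.69 and 8.80 on the Selp-/- arrays (unadjusted p = 0.0898). Rtl1, a retrotransposon-derived gene of the locus, lay below the filter at 8.77, 8.82 and 8.93 on the WT arrays and 8.44, 8.76 and 8.81 on the Selp-/- arrays, as did the non-coding RNA Rian at 7.74 to 8.08. Mir496a, below the filter by 1.32, passed the number 3 contrast in the fit without a filter, at 0.55 (SE 0.11, limma adjusted p = 0.0278). Its F test there gave an adjusted p of 0.0580. Over the whole array 3273 probe sets passed that contrast in the same fit.

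Mir483 read 10.11, 10.42 and 10.12 on the WT arrays and 10.19, 10.27 and 10.08 on the Selp-/- arrays, with a genotype difference of -0.037 and a number 3 difference of -0.15. Like its host Igf2 it passed neither test. Mir335 lay below the filter at 7.63, 7.05 and 6.94 on the WT arrays and 7.48, 6.97 and 7.08 on the Selp-/- arrays. Both arrays numbered 1 were the highest for Mir335, whereas its host Mest was highest on both arrays numbered 3.

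Other imprinted genes were likewise called by array number and not by genotype. Of 60 listed, 49 had a named probe set and 26 passed the filter, and 0 of the 26 were called between genotypes, with 14 differences above 0 and 12 below (median 0.0062). The smallest genotype p belonged to Igf2r, the scavenger receptor of IGF2, at 0.26 (SE 0.17), and to the transcription factor Klf14 at 0.21 (SE 0.15). The number F test called 8 of the 26 (30.8%, against 12.8% of all probe sets). In number 3, 6 were called lower (background 11.7%) and 2 higher (background 9.13%). Those called lower included the signalling adaptor Gab1 at -1.39, Mcts2 at -0.72 and Ppp1r9a at -0.68. Called higher were Peg10, a retrotransposon-derived gene, at 1.08 and Dcn at 0.71, the latter named after its value was seen and also a stromal marker. Dcn passed the filter by only 0.0063 and through the arrays numbered 3, with a mean level of 9.27 there and of 8.56 on the other 4, so its call is not independent of the filter. The limma adjusted p of these 5 ran from 0.00184 for Gab1 to 0.0186 for Dcn.

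Of 26 listed genes that set or protect imprints, 23 were tested, and 0 were called between genotypes, and Mbd3, a subunit of the NuRD complex, came nearest at 0.28 (SE 0.12). The number F test called 4 of the 23 (17.4%), near the 12.8% of all probe sets. In number 3, 7 were called lower (background 11.7%) and 0 higher (background 9.13%), and 21 of 23 differences lay below 0, with a median of -0.22 against -0.013 over all probe sets. Tet1, which oxidises methylcytosine, read 11.56, 11.49 and 9.65 over the WT arrays and 11.19, 11.29 and 9.42 over the Selp-/- arrays, a number 3 difference of -1.85 (SE 0.11, limma adjusted p = 0.000229). The DNA methyltransferase Dnmt3b gave -0.73, the ZFP57 partner Trim28 -0.64 and the H3K27 methyltransferase Ezh2 -0.59.

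Of the IGF pathway, 27 of 35 listed genes were tested, 0 were called between genotypes, and 5 (18.5%, against 12.8% of all probe sets) were called by the number F test. In number 3, 6 were called higher and 4 lower, against 9.13% and 11.7% of all probe sets, so the F test and the lower calls lay near the background. The receptor Igf1r, which Grb10 restrains, fell, with a difference of -0.66 (SE 0.12, limma adjusted p = 0.0110), from levels of 11.04, 11.44 and 10.56 on the WT arrays and 11.41, 11.49 and 10.82 on the Selp-/- arrays. The secreted binding protein Igfbp7 was higher by 2.30, the binding protein Igfbp5 by 0.61 and the kinase subunit Pik3cb by 0.50, and the regulatory subunit Pik3r1 gave -0.63. Akt1, among the smallest genotype p of this list, gave 0.19 (SE 0.14).

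Of 38 other genes linked to quiescence 35 were tested, and 0 were called between genotypes, with a median of -0.062. The number F test called 17 of the 35 (48.6%, against 12.8%), and in number 3, 8 were called higher and 14 lower (background 9.13% and 11.7%). Hlf (-3.53), the niche ligand Angpt1 (-2.45) and the transcription factors Mecom (-2.01) and Meis1 (-2.01) had the smallest p, and all 4 are on the HSC marker list too. Of 34 proliferation genes tested, 0 were called between genotypes, 7 by the number F test, and 3 higher and 4 lower in number 3, counts near the background shares that are no result about these genes.

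The genes whose 6 levels ran most like those of Ndn were Rbbp9, Rdh10 and Faap100, each with a Pearson correlation of 0.995 over the 6 arrays, among 12454 genes. For Grb10 they were Zfhx3, Znrf3 and Aig1, each at 0.999. The points share the arrays numbered 3, and 392 genes for Ndn and 1136 for Grb10 had a correlation over 0.9. Over the 4 arrays numbered 1 and 2 the correlations were 0.979 to 0.991 for the Ndn set and 0.970 to 0.992 for the Grb10 set, arrays that the ranking had used.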

How the data were processed

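RNA of HSC was amplified, labelled with biotin and hybridised to 6 arrays, 3 per genotype, per the labels' protocols. The authors deposited linear probe set intensities. MAS5 is named without a version, per the submitters' processing notes, and any scale factor is unknown. The number of arrays limits the precision. No column lacked a sample.

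Intensities were corrected with normexp (offset 50), log2-transformed and quantile normalized in limma 3.58.1 under R 4.3.3. The filter removed those under the 40th percentile of mean level. Genotype was fitted alone, and array number with genotype (lmFit, eBayes with a trend), two-sided, with Benjamini-Hochberg adjustment at 0.05. The fits were tested on simulated data.

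Names came from the platform annotation, updated through RefSeq (GRCm38.p6): 21780 probe sets had 1 symbol, 1605 several and 5430 none, and 21689 matched a RefSeq gene. The array files name no build. All members are named, at most 6 genes of each other list, those of smallest p, apart from exceptions stated, and the 3 genes most like each tested member whose levels span more than 1. Members and lists were chosen with earlier results of these data known.

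Same-numbered arrays deviated together from their genotype means, with correlations of 0.43, 0.53 and 0.81, each over 0.1. The main genotype fit did not pair the samples, and its intervals hold the differences between numbers. Only an alternative fit of genotype took the numbers, which come from the labels, as a block. Arrays numbered 1 and 2 also correlated across numbers (0.51 for WT 2 with Selp-/- 1 and 0.37 for WT 1 with Selp-/- 2), so for these the correlations do not single out the same number. Alternatives changed the background correction, normalization, filter, variance trend, block and arrays used.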

Additional observations from a re-analysis of the deposited data

How the results depend on the processing

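Genotype calls were 0 in every alternative and leave-one-out fit except with arrays numbered 1 and 2 alone, where 4 probe sets passed, none of them a member. With the array number as a replicate block 0 passed (lowest adjusted p 0.124), and the block changed no call of a member. Leaving out 1 array left 0 to 0 genotype calls, 1036 to 2153 array number calls (2217 with all arrays, 1036 without WT 3 and 1288 without WT 2), 1427 to 3206 number 3 calls (3603 with all, 1427 without WT 3) and 0 to 81 calls of number 2 against 1 (9 with all). Without normalization the array number calls were 5901. The calls of number 2 against 1 were 28 with median centring, 1286 without normalization, 3 without a filter, 17 with the filter at the 20th percentile, 5 without the variance trend and 26 without the genotype term. Without normalization the number 2 minus 1 differences turned to -0.11 for Grb10, -0.14 for Dlk1, -0.0017 for Ndn and -0.038 for Cdkn1c, and the number 3 differences to 0.064 for Meg3 and 0.16 for Igf2, where the median of all probe sets shifted by -0.22 and 0.20. Leaving out 1 array, the genotype difference ran from -0.16 to 0.50 for Grb10, -0.012 to 0.15 for Dlk1, -0.19 to 0.35 for Ndn, -0.12 to 0.099 for Igf2, -0.00076 to 0.18 for Cdkn1c and 0.16 to 0.41 for Meg3, which fell below the filter without Selp-/- 2. The number 2 minus 1 difference then ran from -0.097 to 0.34 for Dlk1 and -0.15 to 0.62 for Ndn, and the number 3 difference from -0.16 to 0.044 for Igf2 and 0.012 (without WT 3) to 0.27 for Dlk1. The number 3 calls of Grb10 and Ndn passed in all 8 other alternatives, at -0.996 to -0.61 and -0.80 to -0.43. The F test of Ndn, at 0.0550, passed with median centring (0.0446), without normalization (0.0382), without the genotype term (0.0373) and without WT 1 (0.0085), Selp-/- 1 (0.0070) or Selp-/- 3 (0.0459), and rose to 0.271 without WT 3. That of Meg3 passed without WT 1 (0.0494). Cdkn1c passed the number 3 contrast without normalization (0.36, adjusted p = 0.0465).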
